A study of Homo sapiens with 15 samples.

Results

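Immune checkpoint and costimulation ligands are proteins on the surface of a cell, or released from it, that restrain or stimulate the lymphocytes and phagocytes it meets. Messenger RNA of 10 such genes was followed in glioma cells: CD274, PDCD1LG2, CD276, CD47, TNFSF9, TNFSF4, NT5E, PVR, NECTIN2 and LGALS9. They were taken by gene symbol from a deposited RNA-seq table of 60612 genes, and each symbol matched 1 gene. Of the table's genes 16841 passed a filter on low counts and were tested, all 10 of these among them. TNFSF9 passed that filter through U87 alone, and TNFSF4 and LGALS9 through U251 alone, so a difference between the lines was built into their selection.

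U87 and U251 are established human glioma cell lines. Of the 15 libraries 6 are of U87, 3 of the control and 3 with hairpin 1812, and 9 are of U251, 3 each of the control, with hairpin 1812 and with hairpin 1813. Both hairpins are shRNAs against LAMP2A, the splice form of LAMP2 that carries substrates of chaperone-mediated autophagy to the lysosome, and the cells with a hairpin were stably transfected. The controls of both lines are labelled WT, and the labels name neither a control hairpin nor whether a stable line was a clone or a pool. Total counts were 14002652 to 18924072 per library, and values are given as counts scaled with TMM factors to a common library size (CPM) or, between genes, as deposited fragments scaled to exonic length and library size (FPKM). A difference is a log2 fold change with its standard error (SE) from edgeR's quasi-likelihood test, and it passed at a Benjamini-Hochberg adjusted p under 0.05 over all genes tested.

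The targeted gene was counted as a whole, so these counts do not separate the splice form LAMP2A. LAMP2 stood at 659, 711 and 711 CPM in U251 control, at 316, 314 and 328 CPM with hairpin 1812 and at 388, 419 and 400.2 CPM with hairpin 1813. All 6 hairpin libraries of U251 lay under the controls. The fall passed with hairpin 1812 (log2 -1.12, SE 0.15, adjusted p = 0.0035) and did not with 1813 (-0.79, SE 0.15, adjusted p = 0.091). With 1813 it passed with DESeq2 (-0.81, adjusted p = 1.8e-05) and was -0.71 with control replicate 1 alone. In U87 LAMP2 was 195, 294 and 292 CPM in control and 257, 256 and 289 CPM with hairpin 1812, overlapping groups with a difference of 0.04 (SE 0.15, adjusted p = 0.89). With control replicate 1 alone the U87 difference was 0.45. No fall of the summed LAMP2 transcript was detected in the U87 libraries labelled with hairpin 1812, and their LAMP2A level is not known from these counts. Replicates 2 and 3 of the controls of both lines stood apart from all other libraries: their MALAT1 level was 250.7 to 391 CPM against 32.7 to 101 CPM elsewhere. In U87 control, replicate 1 held 2.38 times the NECTIN2, 2.05 times the CD276, 1.899 times the TNFSF9 and 1.65 times the PVR of the mean of replicates 2 and 3. It held 0.692 times the CD274, 0.407 times the LGALS9 and 0.163 times the TNFSF4, the latter pair on few counts, and in U251 control LGALS9 stood at 0.459. A fit with control replicate 1 alone is given for a named value where it made or ended a call, turned the direction or moved a called difference by over 1.5 times. That fit keeps 1 control library per line, so between control lines it sets 1 library against 1. Its p-values rest on the spread of the hairpin libraries alone and do not cover the spread between controls.

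Most of these genes encode members of a few protein families. CD274 (PD-L1) and PDCD1LG2 (PD-L2) are the ligands of the T cell receptor PD-1, which dampens T cell signalling, and CD276 (B7-H3) is a relative with a receptor that is less well defined. PVR and NECTIN2 are nectin-family adhesion proteins read by the inhibitory receptor TIGIT and the activating receptor CD226. The inhibitory receptor PVRIG reads NECTIN2. TNFSF9 and TNFSF4 belong to the tumour necrosis factor family and stimulate T cells through TNFRSF9 and TNFRSF4. CD47 binds SIRPA on macrophages and restrains phagocytosis, LGALS9 is a galectin that can bind HAVCR2, and NT5E (CD73) is a surface enzyme that makes adenosine from AMP. CD274 is known to be induced by interferon gamma, and glioma cells are known to express CD274, CD276, CD47 and NT5E.

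The 4 genes whose level differed most between the control lines were TNFSF9, LGALS9, TNFSF4 and CD274, and the windows around their transcription starts are shown because those genes separate U87 from U251. Each window is the RefSeq promoter of GRCh38.p14 from 250 bases before to 50 bases after the start, 5′ to 3′ on the gene's strand. Capitals mark matches to 5 motifs searched on both strands: an interferon response core (GAAA, 2 bases of any kind, GAAA), an interferon gamma activated site (TTCNNNGAA), an AP-1 site (TGANTCA), a hypoxia element core (ACGTG) and a TATA box (TATAAA).
CD274 (chr9:5450292-5450591, plus strand): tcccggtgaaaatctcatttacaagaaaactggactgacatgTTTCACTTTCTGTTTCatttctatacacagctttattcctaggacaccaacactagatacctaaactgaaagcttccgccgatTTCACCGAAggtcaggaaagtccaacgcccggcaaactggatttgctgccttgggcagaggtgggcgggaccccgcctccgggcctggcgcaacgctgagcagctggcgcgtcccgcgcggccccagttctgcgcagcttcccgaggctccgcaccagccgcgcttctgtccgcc
TNFSF9 (chr19:6530776-6531075, plus strand): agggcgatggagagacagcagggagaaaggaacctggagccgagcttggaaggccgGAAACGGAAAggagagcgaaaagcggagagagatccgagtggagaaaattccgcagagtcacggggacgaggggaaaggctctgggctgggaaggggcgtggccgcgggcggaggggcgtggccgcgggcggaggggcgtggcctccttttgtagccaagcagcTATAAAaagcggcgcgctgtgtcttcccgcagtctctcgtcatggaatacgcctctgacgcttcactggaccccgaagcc
TNFSF4 (chr1:173205483-173205782, minus strand): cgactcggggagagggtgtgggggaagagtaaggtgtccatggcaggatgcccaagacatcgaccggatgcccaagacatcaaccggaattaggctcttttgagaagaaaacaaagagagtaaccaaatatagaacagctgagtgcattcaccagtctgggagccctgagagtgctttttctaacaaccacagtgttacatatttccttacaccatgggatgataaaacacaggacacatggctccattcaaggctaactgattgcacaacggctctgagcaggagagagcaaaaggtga
LGALS9 (chr17:27630938-27631237, plus strand): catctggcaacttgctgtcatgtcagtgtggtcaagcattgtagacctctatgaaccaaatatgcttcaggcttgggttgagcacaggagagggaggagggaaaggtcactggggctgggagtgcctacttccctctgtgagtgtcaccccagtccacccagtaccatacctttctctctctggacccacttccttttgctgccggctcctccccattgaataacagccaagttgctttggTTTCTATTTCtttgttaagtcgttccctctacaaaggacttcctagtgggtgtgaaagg

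CD274 holds overlapping interferon response cores on the minus strand at -208 and -202 from the start and an interferon gamma activated site at -125. TNFSF9 holds an interferon response core at -194 and a TATA box at -30, LGALS9 an interferon response core at -9, and TNFSF4 none of the 5 motifs. Of 35116 promoters of this length 3.57% hold the interferon response core, 7.66% the interferon gamma activated site, 7.71% the AP-1 site, 21.41% the hypoxia element core and 11.53% the TATA box. The CD274 and TNFSF9 windows hold 22 and 27 CpG, the TNFSF4 and LGALS9 windows 6 and 2, and the median over all promoters is 14. The LGALS9 and TNFSF4 windows lie inside the genes as counted (27629798 to 27649560 and 173183731 to 173207331). The upstream ends of these counted genes were therefore not searched. A match of letters is a description and was not tested for binding. Of the 10 genes 9 have a RefSeq promoter entry; PDCD1LG2 does not.

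NT5E was the most abundant of the 10 transcripts per length in every group, with 120.4 ± 29.9 FPKM in U87 control (SD, n = 3), 150.4 ± 9.05 in U87 with hairpin 1812, 92.0 ± 10.5 in U251 control, 122 ± 3.09 in U251 with hairpin 1812 and 109 ± 12.8 with hairpin 1813. It made up 39.9% to 54.5% of the summed FPKM of the 10 genes in the 5 group means. Below it the lines were ordered differently. In U87 control CD47 followed with 25.6 ± 2.16 FPKM, then CD276 with 24.3 ± 8.55, NECTIN2 with 17.9 ± 8.02, TNFSF9 with 15.7 ± 4.72 and PVR with 14.0 ± 2.98, levels that lie within their spread of a neighbour. In U251 control PVR followed with 36.1 ± 0.945 FPKM, then NECTIN2 with 29.4 ± 0.368, CD274 with 20.9 ± 1.11, CD276 with 20.9 ± 1.10, CD47 with 12.5 ± 0.280 and PDCD1LG2 with 10.8 ± 0.340. At a mean of at least 1 FPKM, 8 of the 10 were present in both U87 groups and 9 in each U251 group. The genes under that level were TNFSF4 and LGALS9 in U87 and TNFSF9 in U251.

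**Figure D1:**
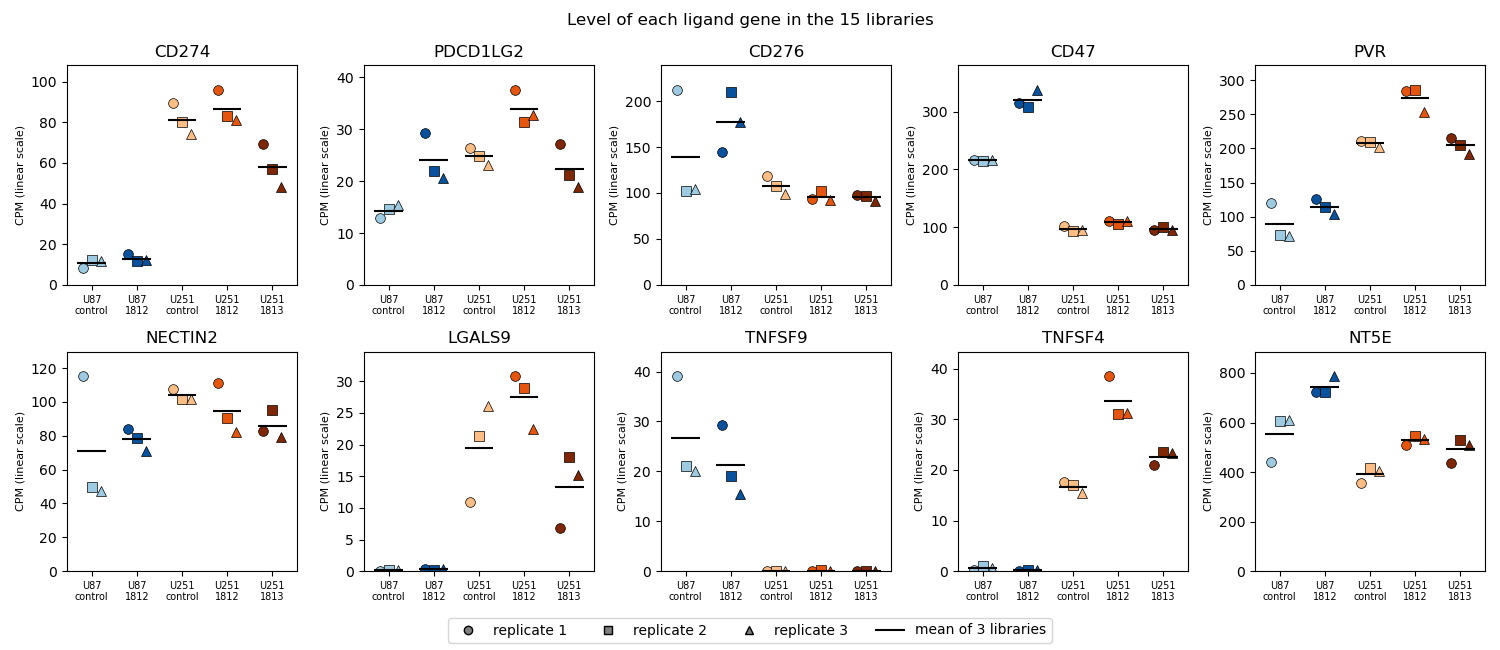
CPM of the 10 ligand genes in every library, on a linear scale of its own for each gene, by group; each point is 1 library, with a shape for its replicate number, and each bar the mean of 3. TNFSF9 is at or near 0 in the 9 U251 libraries, and TNFSF4 and LGALS9 are near 0 in the 6 U87 libraries.

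The control lines differed in 8 of the 10 genes, against 50.0% of all genes tested, with 5 higher in U251 and 3 lower (24.0% and 26.0% of all genes). With hairpin 1812 in both lines 9 of the 10 passed, 5 higher and 4 lower in U251, against 51.7% of all genes, 26.4% higher and 25.3% lower. With control replicate 1 alone, 1 library of each line, the control differences were 3.43 for CD274, 1.03 for PDCD1LG2, -1.08 for CD47 and 0.81 for PVR. For the 3 genes that passed the filter through 1 line, the difference follows from that filter. In bulk libraries, fewer cells with a transcript and less of it per cell cannot be told apart. The median difference over the 10 genes, U251 minus U87, was 0.67 in control, with TNFSF9 set at its bound, and 0.39 with hairpin 1812, beside -0.04 and 0.02 over all genes tested.

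The PD-1 ligands were higher in U251, CD274 more so than PDCD1LG2. CD274 lies on chromosome 9 (5450503 to 5470566, GRCh38, positions from the deposited table), 39965 bases before PDCD1LG2 (5510531 to 5571282). An antisense gene, AL162253.2, overlaps both with 572 counts over all libraries against 12032 for CD274 and 5649 for PDCD1LG2, and the strand used in counting is not given in the sources used here. CD274 was 8.28, 12.2 and 11.8 CPM in U87 control and 89.5, 79.9 and 74.4 CPM in U251 control. No U251 library came near a U87 library, and the difference was 2.92 (SE 0.19, adjusted p = 1.0e-08). PDCD1LG2 was 12.9, 14.7 and 15.5 CPM in U87 control and 26.3, 24.9 and 23.1 CPM in U251 control, again without overlap (0.79, SE 0.17, adjusted p = 0.0015). With hairpin 1812 in both lines the differences were 2.75 for CD274 (SE 0.19, adjusted p = 1.9e-08) and 0.50 for PDCD1LG2 (SE 0.17, adjusted p = 0.024). The latter did not pass without U87 hairpin 1812 replicate 2 (0.44, adjusted p = 0.089) or 3 (0.40, adjusted p = 0.10), or without U251 hairpin 1812 replicate 1 (0.42, adjusted p = 0.095). Per length, CD274 was the lesser of the pair in U87 control, with a ratio of CD274 to PDCD1LG2 of 0.441 ± 0.0551 (FPKM, n = 3), and the greater in U251 control, with 1.94 ± 0.0634.

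With hairpin 1812 PDCD1LG2 rose in U87. Its libraries there read 29.4, 22.0 and 20.7 CPM, all above the 3 controls, and the difference of 0.74 passed (SE 0.17, adjusted p = 0.013). PDCD1LG2 was 1 of 3 of the 10 genes that passed in U87, 2 higher and 1 lower, where 13.6% of all genes passed, 5.86% higher and 7.74% lower. That count was 5 with control replicate 1 alone, 7 without that library, 1 without hairpin replicate 1 and 0 with the U87 groups fitted alone. The median over the 10 genes was 0.36 beside -0.03 over all genes. The PDCD1LG2 call ended when the U87 groups were fitted alone (0.73, adjusted p = 0.15) and without replicate 1 of the hairpin libraries (0.58, adjusted p = 0.055), and stood with control replicate 1 alone. CD274 in the same libraries was 15.03, 11.6 and 12.1 CPM, which overlaps the controls (0.26, SE 0.18, adjusted p = 0.35).

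In U251 none of the 10 genes passed against control with either hairpin, where 0.992% of all genes passed with hairpin 1812 (2676 at an unadjusted p under 0.05) and 0.0475% with 1813 (2215 at an unadjusted p under 0.05). DESeq2 passed 2 of the 10, TNFSF4 and NT5E, with hairpin 1812 and none with 1813. With hairpin 1812 all 3 libraries lay above all 3 controls in 6 of the 10 genes and under them in none, against 14.9% and 13.7% of all genes, and the median was 0.42 beside 0.01. TNFSF9 is 1 of the 6, on 2 counts in each hairpin library against 0 in each control, and entered that median at its bound. With hairpin 1813 the libraries lay above control in 2 genes and under it in 3, where 25.7% of all genes did not overlap. The median of the 9 genes above the floor was -0.15 beside -0.02. PDCD1LG2 was 37.6, 31.4 and 32.8 CPM with hairpin 1812 and 27.1, 21.2 and 18.8 CPM with 1813, above the controls in the first case (0.45, SE 0.17, adjusted p = 0.22) and overlapping them in the second (-0.15, SE 0.17, adjusted p = 0.69). CD274 was 96.0, 83.1 and 81.2 CPM with hairpin 1812, overlapping control (0.09, SE 0.17, adjusted p = 0.81). With hairpin 1813 it was 69.4, 56.8 and 48.3 CPM, under all 3 controls (-0.48, SE 0.17, adjusted p = 0.32). The ratio of CD274 to PDCD1LG2 was lower in every hairpin library than in any control of its line: 0.320 ± 0.0231 with hairpin 1812 in U87, and 1.52 ± 0.0520 with hairpin 1812 and 1.54 ± 0.0400 with 1813 in U251. The 2 U251 values share their controls. Each of the 3 differences has an exact two-sided permutation p of 0.1, the smallest that 3 against 3 libraries can give, and 0.14 after adjustment over the 18 ratio tests made.

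**Figure D2:**
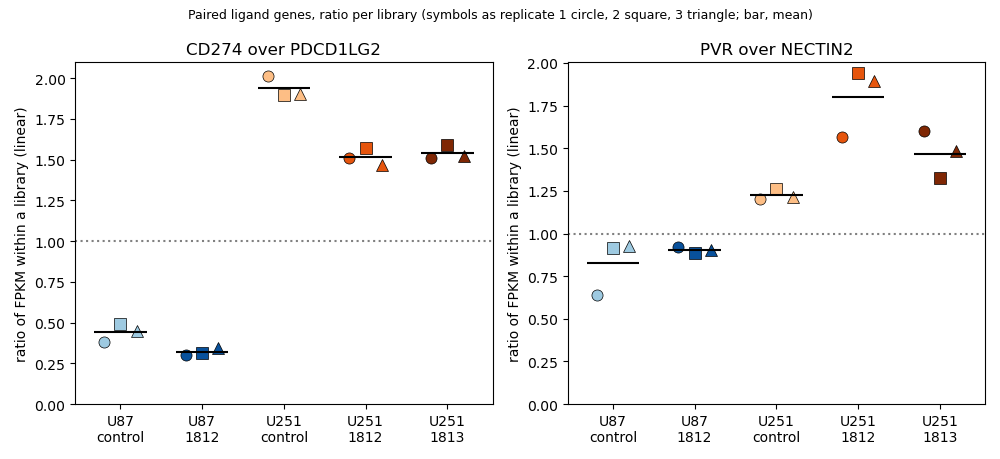
Ratios of deposited FPKM within each library for CD274 over PDCD1LG2 and for PVR over NECTIN2, on a linear scale, by group; a dotted line marks a ratio of 1, points are libraries and bars are means of 3. The ratio of CD274 to PDCD1LG2 averages 0.441 in U87 control and 1.94 in U251 control, and is lower in the hairpin libraries of both lines.

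Genes that act on CD274 were read beside it. Of 29 regulators listed (the interferon receptors, their kinases and transcription factors, MYC and NF-kB subunits, and proteins that stabilise or degrade the protein) 27 were tested, and 7 were higher and 8 lower in U251 control than in U87 control, near the 24.0% and 26.0% of all genes. IFNGR1, a chain of the interferon gamma receptor, was higher in U251 control (1.09, SE 0.15, adjusted p = 2.3e-05), IRF2 was lower (-1.15, SE 0.18, adjusted p = 1.1e-04), and IRF1 overlapped (0.17, SE 0.34, adjusted p = 0.70). The list's median difference was -0.05 beside -0.04 over all genes. CMTM6, a membrane protein that protects CD274 protein from degradation, was 110.0, 108 and 105 CPM in U87 control and 178, 159.9 and 167 CPM with hairpin 1812, a rise of 0.65 (SE 0.12, adjusted p = 0.0034). In U251 it was 205, 214 and 190.4 CPM in control and 174, 182 and 205 CPM with hairpin 1812 (-0.12, SE 0.11, adjusted p = 0.63), and the effect of hairpin 1812 differed between the lines by 0.77 (SE 0.16, adjusted p = 0.019). The CMTM6 rise in U87 did not pass with the U87 groups alone (adjusted p = 0.12), and the difference between lines did not pass without U251 control replicate 2 (0.73, adjusted p = 0.062), without U251 hairpin 1812 replicate 1 (0.72, adjusted p = 0.057) or replicate 2 (0.75, adjusted p = 0.063). In U87 with hairpin 1812 MYC rose (0.50, SE 0.13, adjusted p = 0.022) and NFKB1 fell (-0.61, SE 0.14, adjusted p = 0.014), and both lost the call with control replicate 1 alone. Leaving out 1 library ended the MYC call in 5 of 6 fits (adjusted p of 0.056 to 0.11) and the NFKB1 call in 4 of 6 (adjusted p of 0.054 to 0.074). In U251 with hairpin 1812 MYC was the 1 regulator that passed (0.68, SE 0.13, adjusted p = 0.028). That call ended in 5 of the 6 fits that left out 1 library of those groups (adjusted p of 0.075 to 0.18) and with control replicate 1 alone (0.48, adjusted p = 0.10).

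CD276 is on chromosome 15 (73683966 to 73714514). Its libraries read 212, 102 and 105 CPM in U87 control, 145, 209.7 and 178 CPM in U87 with hairpin 1812, 118, 108 and 98.5 CPM in U251 control, 93.0, 102 and 92.1 CPM with hairpin 1812 and 97.4, 96.7 and 91.6 CPM with 1813. In U87 control replicate 1 was 2.05 times the mean of replicates 2 and 3, and no hairpin comparison of CD276 passed in the fit of all groups. Its difference with hairpin 1812 in U87 was 0.34 (SE 0.23, adjusted p = 0.34). That difference was -0.26 with control replicate 1 alone, and it passed without that library (0.80, adjusted p = 2.9e-04). CD276 did not pass between the control lines (-0.37, SE 0.23, adjusted p = 0.20), with -0.84 for control replicate 1 alone and 0.07 (adjusted p = 0.68) without U87 control replicate 1. With hairpin 1812 in both lines CD276 was lower in U251, without overlap (-0.89, SE 0.23, adjusted p = 0.0050).

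CD47 lies on the minus strand of chromosome 3 (108043091 to 108091862) and varied little within groups. Its libraries read 216, 214 and 217 CPM in U87 control and 315, 309 and 338 CPM with hairpin 1812. The 3 hairpin libraries lay above every control, and the rise of 0.57 passed (SE 0.10, adjusted p = 0.0040). The call stood in each fit that left out 1 library of either group and with control replicate 1 alone, and ended with the U87 groups fitted alone (0.55, adjusted p = 0.15), where 1 gene of the whole table passed. In U251 CD47 was 102, 93.1 and 95.3 CPM in control, 110.2, 105 and 111 CPM with hairpin 1812 and 94.5, 100.1 and 95.1 CPM with 1813. Hairpin 1812 was above control without overlap (0.17, SE 0.10, adjusted p = 0.45), and 1813 overlapped it (-0.01, 95% interval -0.23 to 0.22). CD47 was lower in U251 control than in U87 control (-1.15, SE 0.11, adjusted p = 4.2e-07) and lower still with hairpin 1812 in both lines (-1.56, SE 0.11, adjusted p = 2.0e-08). The hairpin 1812 effect in U87 exceeded that in U251 by 0.40 (SE 0.15, adjusted p = 0.14), a difference that did not pass, although it did with DESeq2 (0.43, adjusted p = 0.0010), without U87 control replicate 1 (0.41, adjusted p = 0.035) and with a term for control replicates 2 and 3 (0.40, adjusted p = 0.029).

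Of 11 partners and processing factors of CD47 10 were tested, and 1 was higher and 4 lower in U251 control, against 24.0% and 26.0% of all genes. The one higher was THBS1, a secreted matrix protein that binds CD47, at 23.6, 27.4 and 27.9 CPM in U87 control and 2005, 4010.4 and 3999 CPM in U251 control (6.99, SE 0.35, adjusted p = 6.8e-10). SIRPA, the receptor of CD47, was lower in U251 control (-0.79, SE 0.17, adjusted p = 0.0013), as were LRP1 (-4.39), ITGB3 (-2.58) and QPCT (-8.03), an enzyme that forms pyroglutamate like its relative QPCTL, which modifies CD47. If QPCT passed the filter on low counts through U87 alone, its difference between the lines follows from that filter. Of the 10, 1 rose and 1 fell with hairpin 1812 in U87, against 5.86% and 7.74% of all genes. SIRPB1, a SIRPA relative, was 4.63, 1.18 and 0.440 CPM against 0.269, 0.208 and 0.124 CPM in control (3.34, SE 0.79, adjusted p = 0.014), and QPCT fell (-1.58, SE 0.46, adjusted p = 0.036). Neither call stood with control replicate 1 alone, and leaving out 1 library ended the SIRPB1 call in 3 of 6 fits (adjusted p of 0.056 to 0.077, with the value at 2.01 without hairpin replicate 1) and the QPCT call in 4 of 6 (adjusted p of 0.12 to 0.15). None of the 10 passed in U251, where their median was -0.52 with hairpin 1812 and -0.29 with 1813 beside 0.01 and -0.02 over all genes.

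The nectin-family genes PVR (44643798 to 44666162) and NECTIN2 (44846175 to 44889223) lie 180013 bases apart on chromosome 19. PVR overlaps CEACAM19 on the same strand, which held 502 counts over all libraries against 42168 for PVR. PVR was 120.3, 73.5 and 71.9 CPM in U87 control and 211, 209 and 202 CPM in U251 control. The U251 libraries were the higher without overlap (1.23, SE 0.18, adjusted p = 3.8e-05), and the difference was 1.26 with hairpin 1812 in both lines (SE 0.18, adjusted p = 3.0e-05). NECTIN2 was 115, 49.5 and 47.5 CPM in U87 control and 108, 102 and 102 CPM in U251 control, overlapping through U87 control replicate 1. Its difference of 0.55 did not pass (SE 0.26, adjusted p = 0.094), and it passed with replicate numbers as a block (0.63, SE 0.22, adjusted p = 0.032). Same-numbered libraries of these groups deviated together over all genes, but the labels do not pair them. NECTIN2 in replicate 1 was 2.38 times the mean of replicates 2 and 3 in U87 control and 1.06 times in U251 control. Without U87 control replicate 1 the NECTIN2 difference was 1.10 (adjusted p = 3.8e-06), and with control replicate 1 alone -0.10.

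With hairpin 1812 PVR read 126, 114 and 104 CPM in U87, overlapping control (0.38, SE 0.17, adjusted p = 0.16), and 284, 286 and 253 CPM in U251, above all controls (0.40, SE 0.17, adjusted p = 0.28). With hairpin 1813 it read 216, 206 and 192 CPM, which overlaps control (-0.02, 95% interval -0.39 to 0.35). NECTIN2 was 84.2, 78.8 and 71.1 CPM in U87 with hairpin 1812, 111, 90.5 and 82.1 CPM in U251 with 1812 and 82.9, 95.2 and 79.5 CPM with 1813. The hairpin 1813 libraries lay under the controls (-0.27, SE 0.26, adjusted p = 0.62), and the 1812 libraries of both lines overlapped theirs. In U87 its difference of 0.14 (SE 0.26, adjusted p = 0.76) became -0.57 with control replicate 1 alone and 0.70 without it (adjusted p = 6.6e-04). The ratio of PVR to NECTIN2 in FPKM was 1.23 ± 0.0318 in U251 control, 1.80 ± 0.205 with hairpin 1812 and 1.47 ± 0.137 with 1813, higher in every hairpin library than in any control (exact two-sided permutation p = 0.1 each, adjusted p = 0.14). In U87 that ratio was 0.827 ± 0.162 in control and 0.903 ± 0.0164 with hairpin 1812, overlapping (exact two-sided permutation p = 0.9). The third ratio tested, CD47 to CD276, was 0.599 ± 0.0391 in U251 control, 0.761 ± 0.0631 with hairpin 1812 and 0.676 ± 0.0258 with 1813, again above control in every hairpin library (exact two-sided permutation p = 0.1 each, adjusted p = 0.14). In U87 it was 1.15 ± 0.411 in control and 1.23 ± 0.235 with hairpin 1812, overlapping (exact two-sided permutation p = 0.8).

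LGALS9 (chromosome 17, 27629798 to 27649560) was all but absent from U87. Its counts were 1, 3 and 2 in U87 control and 6, 3 and 5 with hairpin 1812, against 186, 427 and 461 in U251 control. The ratio of summed levels, U251 to U87, was 149 in control (95% counting interval 68.0 to 406) and 90.8 with hairpin 1812 (53.9 to 167). In U251 it varied between replicates, with 10.9, 21.4 and 26.0 CPM in control, 30.8, 29.0 and 22.5 CPM with hairpin 1812 and 6.88, 18.0 and 15.2 CPM with 1813. Replicate 1 was the lowest in control and with 1813 and the highest with 1812, and both hairpin groups overlapped control (0.50, SE 0.33 and -0.54, SE 0.34). LGALS9B and LGALS9C, near-identical copies, held 22 and 8 counts over all libraries against 2923 for LGALS9, so a share of LGALS9 reads may have been assigned among them.

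Each tumour necrosis factor ligand was at or near 0 in 1 of the lines. TNFSF9 (chromosome 19, 6531026 to 6535924) read 39.1, 21.0 and 20.2 CPM in U87 control and 29.3, 19.0 and 15.4 CPM with hairpin 1812, overlapping groups (-0.33, SE 0.30, adjusted p = 0.48). With control replicate 1 alone the difference was -0.88. In U251 it had 0 counts in all 3 control libraries, 2 in each library with hairpin 1812 and 1, 0 and 0 with 1813. Against a floor of 3 counts over the U251 control group, TNFSF9 was at least 486-fold higher in U87 control. With hairpin 1812 in both lines the ratio of U87 to U251 was 160 (95% counting interval 73.2 to 437). Differences between U251 groups at these counts were not detectable at this depth.

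TNFSF4 (minus strand of chromosome 1, 173183731 to 173207331) had the opposite order, high in U251 and low in U87. Its libraries read 17.7, 17.0 and 15.4 CPM in U251 control, 38.6, 31.1 and 31.2 CPM with hairpin 1812 and 21.0, 23.6 and 23.4 CPM with 1813. The 6 hairpin libraries lay above the 3 controls. With hairpin 1812 the difference was 1.01 (SE 0.27, adjusted p = 0.084) and with 1813 it was 0.44 (SE 0.26, adjusted p = 0.45), both against the same controls. The hairpin 1812 difference passed under 5 other settings at 0.92 to 1.12, among them DESeq2 (0.99, adjusted p = 5.3e-06) and control replicate 1 alone (0.92).

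In U87 TNFSF4 rested on few reads, 2, 15 and 10 counts in control and 1, 4 and 2 with hairpin 1812. The groups overlapped, and a fall of 1.92 passed in the fit of all groups (log2 -1.92, SE 0.58, adjusted p = 0.042). It did not pass in 5 of the 6 fits that left out 1 library of those groups (adjusted p of 0.058 to 0.22), and with control replicate 1 alone the value was 0.15 (adjusted p = 0.95). The ratio of U251 to U87 was 28.1 in control (95% counting interval 19.2 to 42.9) and 223 with hairpin 1812 (108 to 555). The effect of hairpin 1812 in U87 minus that in U251 was -2.93 (SE 0.64, adjusted p = 0.021), the 1 of the 10 genes for which this difference passed, where 4.51% of all genes did. It was -0.77 (adjusted p = 0.76) with control replicate 1 alone and -2.90 (adjusted p = 0.052) with the 4 groups fitted alone, and leaving out 1 library ended the call in 7 of 12 fits (adjusted p of 0.050 to 0.078).

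**Figure D3:**
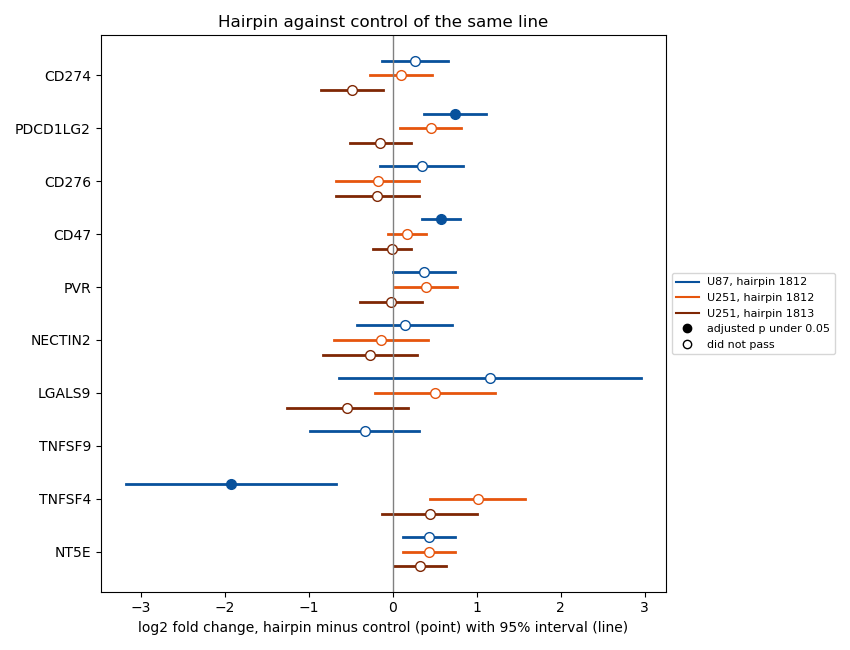
Log2 fold change of each gene with its 95% interval for hairpin 1812 against control in U87, and for hairpins 1812 and 1813 against the same controls in U251; filled points passed at an adjusted p under 0.05. PDCD1LG2 and CD47 rise and TNFSF4 falls in U87, none passes in U251, and TNFSF9 in U251 is left out because its control libraries hold 0 counts.

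The receptors of these ligands were mostly near 0, as 13 of the 19 listed did not pass the filter on low counts. In U251 control 1 of the 6 tested was higher than in U87 control and 2 were lower, near the 24.0% and 26.0% of all genes. RGMB, a binding partner of PDCD1LG2, was the higher one (2.04, SE 0.18, adjusted p = 3.6e-07), and SIRPA and TNFRSF9 were the lower. TNFRSF9, the receptor of TNFSF9, was 41.7, 49.7 and 49.7 CPM in U87 control and 24.7, 18.7 and 15.1 CPM with hairpin 1812. All hairpin libraries were lower, and the fall of 1.27 passed (log2 -1.27, SE 0.24, adjusted p = 0.0048) also with control replicate 1 alone, and not with the U87 groups fitted alone (-1.29, adjusted p = 0.10). In U251 TNFRSF9 was 5.44, 6.56 and 7.12 CPM in control, 7.74, 8.27 and 8.04 CPM with hairpin 1812 and 17.1, 8.98 and 8.89 CPM with 1813, and did not pass. The effect of hairpin 1812 differed between lines by -1.60 (SE 0.35, adjusted p = 0.021), a call that ended in 5 fits that left out 1 library (adjusted p of 0.051 to 0.059). TNFRSF9, like TNFSF9, was lower in U251 control than in U87 control (-2.88, SE 0.26, adjusted p = 3.2e-07).

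NT5E (chromosome 6, 85449584 to 85495791) read 442, 605 and 611 CPM in U87 control and 724, 722 and 788 CPM with hairpin 1812. In U251 it read 358, 416 and 403 CPM in control, 511, 546 and 533 CPM with hairpin 1812 and 437, 531 and 510.3 CPM with 1813. All 9 hairpin libraries lay above the controls of their line, and none of the 3 differences passed: 0.43 in U87 (SE 0.15, adjusted p = 0.063), and 0.43 (SE 0.15, adjusted p = 0.17) and 0.33 (SE 0.15, adjusted p = 0.36) in U251, where both hairpins share their controls. In U87 the difference passed without control replicate 1 (0.31, adjusted p = 0.037) and with DESeq2 (0.44, adjusted p = 0.013), and it was 0.75 with control replicate 1 alone. In U251 with hairpin 1812 it passed with DESeq2 (0.41, adjusted p = 0.048) and with a term for control replicates 2 and 3 (0.65, adjusted p = 0.0096). The effect of hairpin 1812 in U87 minus that in U251 was -0.00 (95% interval -0.44 to 0.43). NT5E was lower in U251 control than in U87 control (-0.49, SE 0.15, adjusted p = 0.011). It did not pass with the groups fitted alone (-0.48, adjusted p = 0.11) or without the filter on low counts (-0.47, adjusted p = 0.073), and was -0.31 with control replicate 1 alone.

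Other genes of the adenosine pathway were read beside NT5E. Of 17 other genes of extracellular adenosine (ectonucleotidases, deaminase and kinase, receptors and transporters) 13 were tested. In U87 with hairpin 1812, 2 of the 13 rose and none fell, against 5.86% and 7.74% of all genes, with a median of 0.55 beside -0.03 over all genes. ADA, which converts adenosine to inosine, was 8.96, 15.2 and 15.7 CPM in control and 53.5, 68.8 and 63.7 CPM with hairpin 1812 (2.22, SE 0.22, adjusted p = 1.6e-04). DPP4, a peptidase that anchors ADA at the cell surface, was 91.6, 76.0 and 79.3 CPM in control and 230.2, 176 and 181 CPM with hairpin 1812 (1.25, SE 0.21, adjusted p = 0.0021). Neither gene's groups overlapped, both passed with control replicate 1 alone, and neither passed with the U87 groups fitted alone (adjusted p = 0.090 and 0.10). In U251 ADA was 4.18 to 7.03 CPM and DPP4 0.742 to 2.21 CPM over the 9 libraries, and none of the 13 genes passed with either hairpin. The effect of hairpin 1812 on ADA differed between the lines by 1.78 (SE 0.31, adjusted p = 0.0077). In control, 6 of the 13 were lower in U251 than in U87 and none higher, against 26.0% and 24.0% of all genes, DPP4 (-6.19), ACP3 (-5.70), ADA (-1.54, and -0.82 with control replicate 1 alone) and SLC29A2 (-1.90) with the smallest adjusted p. Any of these that passed the filter on low counts through U87 alone differ between the lines by that selection.

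**Figure D4:**
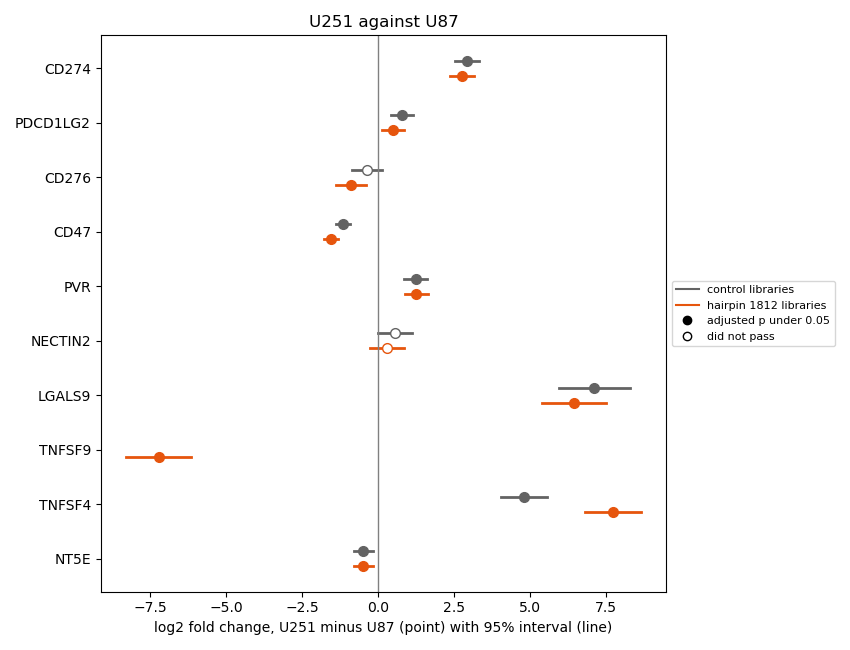
Log2 difference of each gene between U251 and U87, with its 95% interval, for the controls and for the cells with hairpin 1812; filled points passed at an adjusted p under 0.05. CD274, PDCD1LG2, TNFSF4, PVR and LGALS9 are higher in U251 and CD47 and NT5E lower in both comparisons, and TNFSF9 between controls is left out because its U251 libraries hold 0 counts.

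The hairpins were also compared with each other in U251. All 10 fitted differences, 1812 minus 1813, were positive, with a median of 0.50 beside 0.00 over all genes, and in 7 of the 10 genes every 1812 library was above every 1813 library, against 12.2% of all genes. Of 31 other checkpoint and costimulation genes 24 were positive, with a median of 0.29 over the 30 above the floor, and 13 did not overlap, all higher with 1812. The 7 were CD274 (0.58, SE 0.17), PDCD1LG2 (0.60, SE 0.17), CD47 (0.17, SE 0.10), TNFSF4 (0.57, SE 0.26), PVR (0.42, SE 0.17), LGALS9 (1.04, SE 0.34) and TNFSF9, the last on counts of 2 or fewer. CD276, NECTIN2 and NT5E overlapped. None passed by edgeR in the fit of all groups, where 0.0772% of all genes passed (1044 at an unadjusted p under 0.05) and DESeq2 passed none of the 10. The smallest adjusted p of the 10 was 0.40, for PDCD1LG2. With those 6 libraries fitted alone 5 passed: CD274 (adjusted p = 0.028), PDCD1LG2 (0.032), TNFSF4 (0.020), PVR (0.020) and LGALS9 (0.041), where 4.21% of all genes passed.

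Other checkpoint and costimulation genes, mostly ligands, were counted from a list of 42, of which 31 were tested. In U251 control 16 were higher and 11 lower than in U87 control, against 24.0% and 26.0% of all genes, with a median of 0.64 beside -0.04 over all genes. CD40, a costimulatory receptor of the tumour necrosis factor receptor family, was 15.7, 14.7 and 15.8 CPM in U87 control and had 0.0585, 0 and 0 CPM in U251 control. ULBP1, a ligand of the natural killer receptor NKG2D, was 12.7, 12.3 and 12.8 CPM against 0.117, 0 and 0.113 CPM. At these levels neither CD40 nor ULBP1 passed the filter on low counts through U251 control, so their difference was built into their selection. Genes of this kind are in the list's counts and median. BTN2A1, a butyrophilin read by gamma-delta T cells, was higher in U251 (1.85, SE 0.13, adjusted p = 3.5e-08) and LGALS3, a galectin, lower (-2.34, SE 0.19, adjusted p = 1.0e-07). With hairpin 1812 in U87 LGALS3 rose (0.57, SE 0.18, adjusted p = 0.047) and NECTIN1 fell (-0.91, SE 0.22, adjusted p = 0.016), neither with the U87 groups alone and LGALS3 not with control replicate 1 alone (0.42, adjusted p = 0.050). Leaving out 1 library ended the LGALS3 call in 5 of 6 fits (adjusted p of 0.084 to 0.16) and the NECTIN1 call in 3 of 6 (adjusted p of 0.060 to 0.078). None of the 31 passed against control in U251 with either hairpin. The CD40 effect of hairpin 1812 differed between lines (-3.45, SE 0.87, adjusted p = 0.039), on at most 0.270 CPM in U251, and leaving out 1 library ended that call in 9 of 12 fits, as did control replicate 1 alone (-2.14, adjusted p = 0.28).

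Markers of other cells were read beside these values. Of 18 leukocyte markers 5 were tested. Their summed FPKM was 13.2 to 45.4 in the 6 U87 libraries and 1.17 to 2.46 in the 9 U251 libraries. CSF1R, HLA-DRA, CD68 and CD2 were lower in U251 control (CD68 at -1.55 with control replicate 1 alone), while none passed with a hairpin. None of the 18 reached a mean of 1 FPKM in any U251 group. For a marker that passed the filter on low counts through U87 alone, the difference between the lines follows from that filter. CD3E and MS4A1 had 0 counts in all libraries, and PTPRC, which marks all leukocytes, did not exceed 0.585 CPM. Of 10 endothelial and fibroblast markers 9 were tested, with a summed FPKM of 18.7 to 65.5 in U87 and 6.06 to 7.53 in U251. Of the 9, 6 were lower and none higher in U251 control, against 26.0% and 24.0% of all genes. That count includes any marker that passed the filter through U87 alone, for which the difference was built in. In U87 2 of these fell and 1 rose with hairpin 1812, against 7.74% and 5.86% of all genes. KDR, an endothelial growth factor receptor, was 2.76, 24.1 and 23.9 CPM in U87 control and 1.03, 1.12 and 1.10 CPM with hairpin 1812 (-3.96, SE 0.59, adjusted p = 0.0014, and -1.35 with control replicate 1 alone). ACTA2, smooth muscle actin, was 23.2, 96.4 and 98.2 CPM in control and 14.4, 15.6 and 14.1 CPM with hairpin 1812 (-2.30, SE 0.39, adjusted p = 0.0024, and -0.66 with control replicate 1 alone). In both genes control replicate 1 lay nearest the hairpin libraries. PECAM1, an endothelial adhesion protein, was 3.43, 1.11 and 0.866 CPM in control and 6.68, 7.41 and 6.53 CPM with hairpin 1812 (1.93, SE 0.56, adjusted p = 0.034), and did not pass with control replicate 1 alone (1.00, adjusted p = 0.18) or in 5 of the 6 fits that left out 1 library. Hairpin 1812 effects differed between the lines for ACTA2 (-2.50, adjusted p = 0.021) and KDR (-3.24, adjusted p = 0.030), but not with control replicate 1 alone (-0.46, adjusted p = 0.33, and -0.99, adjusted p = 0.13). None of these markers passed with a hairpin in U251.

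Of 14 astrocyte and glioma markers 13 were tested, 7 higher and 3 lower in U251 control than in U87 control, against 24.0% and 26.0% of all genes. SOX2, a factor of neural and glioma stem cells, was at most 0.353 CPM in U87 and 98.0 to 203 CPM in U251. It passed the filter on low counts through U251 alone, so its difference between the lines follows from that filter. GFAP, an astrocyte filament protein, was 144, 107 and 96.8 CPM in U251 control, 26.1, 14.95 and 11.7 CPM with hairpin 1812 (-2.72, SE 0.27, adjusted p = 2.7e-04) and 1.03 to 2.10 CPM in U87. With hairpin 1813 the fitted GFAP level in U251 also lay under control but did not pass, and GFAP passed as lower with 1812 than with 1813. With 1 library left out that difference between hairpins was -2.05 to -1.42 (adjusted p of 0.014 to 0.21). CHI3L1, a secreted glycoprotein of reactive astrocytes, went the other way, with 28.8, 75.1 and 69.7 CPM in U87 control and 0.339 to 1.20 CPM in U251 control (-6.10, SE 0.50, adjusted p = 1.2e-07), and VIM and OLIG2 were also lower in U251 control. If CHI3L1, near 0 in U251, passed the filter through U87 alone, its difference follows from that filter. In U87 with hairpin 1812 CHI3L1 read 305, 145 and 136 CPM, a rise of 1.76 (SE 0.37, adjusted p = 0.0086, and 2.76 with control replicate 1 alone). SLC1A3, a glutamate transporter, rose with it in U87 (0.59, SE 0.13, adjusted p = 0.012) and fell with hairpin 1812 in U251 (-0.71, SE 0.13, adjusted p = 0.027), the latter not with control replicate 1 alone (-0.62, adjusted p = 0.078) or in 5 of the 6 fits that left out 1 library. The part of these differences in the ligand values was not tested.

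**Figure D5:**
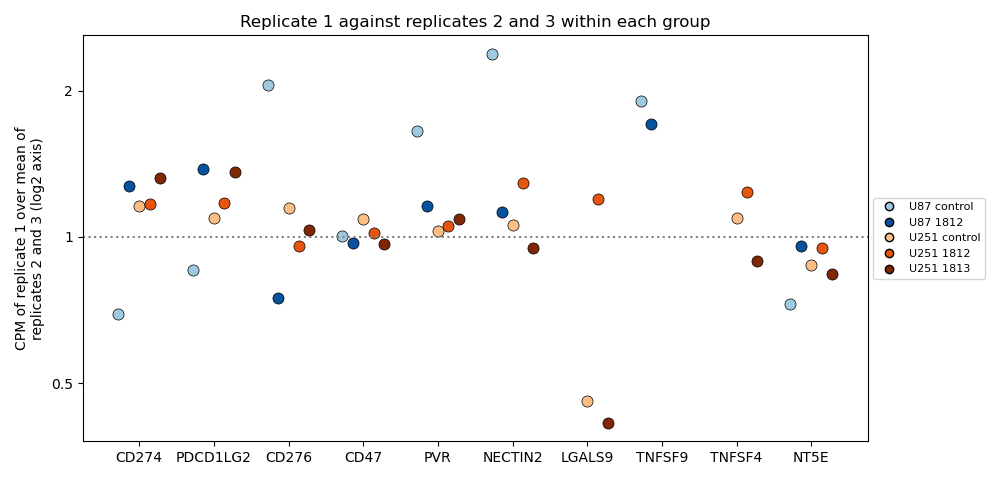
Ratio of replicate 1 to the mean of replicates 2 and 3 for each gene and group, in CPM on a log scale, where 1 means no difference; genes with too few counts in a group are left out. In U87 control NECTIN2 stands at 2.38 and CD276 at 2.05, while in U251 LGALS9 stands at 0.459 in control and 0.414 with hairpin 1813.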

How the data were processed

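RNA-seq was deposited for 15 libraries in 5 groups of 3. Per the labels' protocols, total RNA was depleted of ribosomal RNA and strands were marked with dUTP, and several extraction methods and sequencers are listed with no link to single libraries. The authors used, per the submitters' processing notes, bcl2fastq 2.17.1.14, cutadapt 1.9.1, HISAT2 2.0.1, HTSeq 0.6.1, bedtools 2.17.0, DESeq2 and the build GRCh38. Neither the annotation release nor the counting strand is given in the sources used here. Per the file headers, the deposited table holds whole read counts and FPKM per gene and library, with exonic length.

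Counts were tested with edgeR 4.0.16 in R 4.3.3 (filterByExpr, TMM scaling, 1 fit of 5 group means over 15 libraries with 10 residual degrees of freedom, quasi-likelihood tests, two-sided, Benjamini-Hochberg adjustment over the 16841 genes of each of 7 comparisons). SE is the absolute log2 fold change divided by the square root of F, and intervals are at 95%. A group at 0 counts was set at 3 counts in all as a floor; floors and counting intervals cover counting error only. The fit was checked on simulated counts with known changes. These were drawn independently for each library without the shift of control replicates 2 and 3, so the check does not cover that shift. FPKM ratios were compared by exact permutation tests. Promoters came from RefSeq (GRCh38.p14). Alternatives were RLE scaling, no filter, replicate numbers as a block, a term for control replicates 2 and 3, control replicate 1 alone, the compared groups alone, each library left out, and DESeq2 1.42.0. Non-overlap was also counted on FPKM, an alternative chosen after seeing the data.

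The members and the gene lists were chosen with earlier results of these data known. A listed gene near 0 in 1 line may have passed the filter on low counts through the other alone. Its difference between the lines then follows from that filter. Named from each list were up to 4 genes per comparison with the smallest adjusted p among those that passed; IRF1, CD3E, MS4A1 and PTPRC were named after their values were seen. A gene of the list of CD274 regulators that this rule names is not reported here. For each of the 10 genes, likeness was measured by Pearson's r of log2(CPM + 0.5), centred on each line's mean, against genes whose mean FPKM was 5 or more in any group. Nothing in the labels says that replicates came from separate cultures, so p-values cover only the spread between these libraries, which may be technical. Same-numbered libraries deviated together, with all correlations of deviations above 0.1, for U251 control against U87 control (0.490, 0.340 and 0.409) and against both hairpins in U251 (0.124 to 0.462), and not for the other pairs of groups.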

Additional observations from a re-analysis of the deposited data

Results flagged for a closer look

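The effect of hairpin 1812 on TNFSF4 passed as different between the lines in the fit of all groups. Its log2 effect in U87 minus that in U251 was -2.93 (edgeR's quasi-likelihood test, Benjamini-Hochberg adjusted p = 0.021), from -1.92 in U87 and 1.01 in U251. TNFSF4 passed the filter on low counts through U251 alone, and the U87 side rests on 27 counts in control and 7 with the hairpin, in overlapping groups. The call ended with the compared groups fitted alone and in most fits that left out 1 library. With control replicate 1 alone the difference was -0.77.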

How the results depend on the processing

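The number of the 10 genes that passed was 3 for hairpin 1812 in U87, 0 for each hairpin and between hairpins in U251, 8 between control lines, 9 between lines with hairpin 1812 and 1 for the difference of hairpin 1812 effects. For U87 it became 5 with control replicate 1 alone and 0 with the compared groups alone. For hairpin 1812 in U251 it became 1 without the filter on low counts, with control replicate 1 alone and with the compared groups alone, and 2 with DESeq2 and with the term for control replicates 2 and 3. Between hairpins it became 1 without the filter and 5 with the compared groups alone. For the difference of effects it became 2 without the filter, with the replicate block and with DESeq2, 3 with the term, and 0 with control replicate 1 alone and with the compared groups alone. Leaving out 1 library gave 1 to 7 in U87 (7 without control replicate 1), 0 to 4 for the difference of effects (4 without U87 control replicate 1), 8 to 9 for either pair of lines and 0 in the U251 comparisons. The cause was not tested.

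Single log2 values turned sign as follows. The NT5E difference of effects was 0.018 with RLE scaling, 0.022 with the compared groups alone, 0.024 with DESeq2, 0.026 without the filter, 0.0043 with the replicate block, 0.0084 with the term and 0.18 with control replicate 1 alone, and that of PVR 0.00066 without the filter and 0.016 with the term. Without the filter CD47 with hairpin 1813 was 0.0037. CD276 between hairpins was -0.0019 without the filter and -0.0016 with control replicate 1 alone. With the term, U87 values were -0.0070 for CD276 and -0.22 for NECTIN2, and LGALS9 with hairpin 1813 was 0.30. With control replicate 1 alone, U87 values were -0.26 for CD276, 0.15 for TNFSF4, -0.071 for PVR and -0.57 for NECTIN2, CD274 with hairpin 1812 in U251 was -0.045, LGALS9 with hairpin 1813 was 0.30, and NECTIN2 was -0.10 between control lines and -0.38 for the difference of effects. With 1 library left out, U87 ranges were -0.63 to 0.061 for TNFSF9, -0.078 to 0.70 for NECTIN2 and -0.12 to 0.14 for LAMP2. Other ranges were -0.55 to 0.071 for CD276 between control lines, -0.043 to 0.031 for CD276 between hairpins, -0.16 to 0.27 for PVR and -0.13 to 0.074 for NT5E in the difference of effects, and with hairpin 1813 -0.034 to 0.042 for CD47, -0.061 to 0.025 for PVR and 0.00 to 2.39 for TNFSF9.

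The replicate block gave 2 genes for the difference of effects (TNFSF9 and TNFSF4). It added NT5E in U87 (0.44, adjusted p = 0.027), where same-numbered libraries did not deviate together. Apart from NECTIN2 between control lines, and QPCT in U87 (adjusted p = 0.051) and SIRPB1 in the difference of effects (adjusted p = 0.053), it changed no call among the genes of the text. Depth limits TNFSF9 in U251, and TNFSF4 and LGALS9 in U87, where counts were 0 to 15 per library.

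Over all genes, counts of passing genes moved by over 1.5 times under these settings, among others that left out 1 library. Hairpin 1812 in U87 raised 987 and lowered 1304, but 1 and 0 with the compared groups alone, 2132 and 1672 with control replicate 1 alone, 4099 and 4053 on leaving out control replicate 1, or 415 and 474 on leaving out control replicate 2. Hairpin 1812 in U251 raised 69 and lowered 98, but 261 and 456 without the filter, 137 and 187 with the replicate block, 240 and 289 with the term, 338 and 496 with the compared groups alone, 278 and 479 with DESeq2, 236 and 270 on leaving out control replicate 1, or 8 and 7 on leaving out control replicate 3. Hairpin 1813 raised 3 and lowered 5, but 153 and 308 without the filter, 18 and 16 with the term, 7 and 13 with control replicate 1 alone, 12 and 38 with the compared groups alone, 64 and 166 with DESeq2, and 147 and 133 on leaving out control replicate 1. Hairpin 1812 against 1813 gave 8 and 5, but 350 and 275 with the compared groups alone, 98 and 24 without the filter, 72 and 41 with the term, 153 and 96 with control replicate 1 alone and 65 and 30 with DESeq2. The difference of effects gave 369 and 391, but 1191 and 1173 with the term, 1070 and 623 with control replicate 1 alone, 733 and 747 with DESeq2, 186 and 145 with the compared groups alone, and 1957 and 1948 on leaving out U87 control replicate 1. Between control lines 4040 were higher and 4386 lower, but 2672 and 2740 with those groups alone.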

Other observations

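For each of the 10 genes, the genes whose level followed it most closely across the 15 libraries, after centring each line on its own mean, were read from 8557 genes. They were MAPRE2, CCN2 and SNAP25 for CD274 (Pearson's r 0.906 to 0.852) and NT5C3A, IKBIP and CCNYL1 for PDCD1LG2 (0.926 to 0.911). They were FBXO32, TRAP1 and SCAP for CD276 (0.939 to 0.929) and CCNH, PTN and PRR16 for CD47 (0.967 to 0.956). PHLDA1, ABITRAM and RIOK2 followed NT5E (0.954 to 0.926), IFI35, HBEGF and TMEM62 followed PVR (0.959 to 0.941) and MBOAT7, TRIM65 and MAN2A2 followed NECTIN2 (0.957 to 0.933). PHF11, PNPT1 and CA9 followed LGALS9 (0.895 to 0.872), CDR2L, TRIM8 and SMPD4 followed TNFSF9 (0.914 to 0.892) and GPAT3, TRIM39 and LINC02154 followed TNFSF4 (0.915 to 0.900). These are descriptions with no test: the libraries share groups, depth and the replicate pattern of the controls, and TNFSF9, TNFSF4 and LGALS9 are near 0 in 1 line each.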
